A study of Arabidopsis thaliana with 6 samples.

Results

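UGT71C1, UGT71C2, UGT73B5, UGT85A3 and UGT79B3 are 5 genes of the UGT family of UDP-dependent glycosyltransferases, taken here from the 552 genes whose RNA the authors listed as different between wild-type and mrg1 mrg2 seedlings of Arabidopsis thaliana. The members were chosen by name from those lists, so the fold change and adjusted p of the authors' own comparison had already selected them. The name UGT79B3 is that of the deposited table, the other 4 are also the annotation's names, and all 5 proteins hold the family's signature stretch shown further on. UGT71C1, UGT71C2, UGT73B5 and UGT85A3 came from the 531 genes listed as higher in the mutant, and UGT79B3 from the 21 listed as lower. The smallest log2 fold change was 0.59 among the higher genes and -1.06 among the lower ones. Counts of higher and lower genes are therefore not like for like, and a gene that was not listed can still have differed. These lists hold 2.31% and 0.0913% of the 22995 genes that the authors' test was inferred to cover from its p-values, and since the lists chose the members, nothing is read from the members' own counts. Their difference between the genotypes is therefore given as a description, and no new test of it was made. In the authors' deposited table the 5 adjusted p-values ran from 6.35e-05 for UGT85A3 to 0.0262 for UGT71C1, and the largest adjusted p of any listed gene was 0.0497.

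Both genotypes were in the Columbia-0 background. The control was the Col-0 wild type, and the mutant carried mutations in both MRG1 and MRG2, which encode chromodomain proteins that bind histone H3 methylated at lysine 36; the sources used here give neither the alleles nor the number of independent mutant lines. The tissue was the aerial part (leaves and stem) of seedlings aged 12 days, raised on soil at 22 °C in days of 16 h light and sampled 8 h after lights on, in control conditions. For all 6 libraries the stratification was 3 days at 4 °C and the light intensity was 100 µmol/m²/s. There were 3 libraries of each genotype, and the series' design text places them in 3 independent experiments. Libraries with the same replicate number were taken here to be of the same experiment, which the labels do not state. Raw read counts were deposited for the listed genes only, so the full depth of each library was not analysed here. MRG2 itself had 406 ± 20.8 normalized counts in Col-0 and 133 ± 55.4 in the mutant (SD, n = 3 each), while MRG1 was not listed. The listed genes held 0 of 8 leaf, 0 of 5 root and 0 of 4 flower markers that the annotation names, so the tissue could not be checked from these tables. In whole aerial parts, fewer cells of a type and less RNA per cell cannot be told apart.

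UGT enzymes move a sugar from a UDP-sugar to small acceptor molecules, among them flavonoids, lignans, hormones, defence compounds and foreign chemicals, and the sugar usually makes the acceptor more soluble and fit for storage in the vacuole. The family is large in plants, and its members share a C-terminal stretch, the PSPG box (plant secondary product glycosyltransferase), which holds most of the contacts to the UDP-sugar. The rest of the protein, above all the N-terminal part that binds the acceptor, varies more between members.

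The DNA that encodes the PSPG box is shown for the 5 genes, because this stretch marks them as members of the family. Each run covers 44 codons in 132 bases of the TAIR10.1 genome, read 5′ to 3′ on the coding strand within 1 exon, and the capitals mark the 4 codons of the conserved histidine, cysteine and glycine and of the aromatic residue after them. UGT71C1 lies at chr2:12710952-12711083 (plus strand), UGT71C2 at chr2:12707797-12707928 (plus strand), UGT73B5 at chr2:6760060-6760191 (plus strand), UGT85A3 at chr1:7900774-7900905 (minus strand) and UGT79B3 at chr4:13763918-13764049 (minus strand).
UGT71C1: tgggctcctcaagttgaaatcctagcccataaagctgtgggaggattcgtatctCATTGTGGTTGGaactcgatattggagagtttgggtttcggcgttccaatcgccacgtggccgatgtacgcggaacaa
UGT71C2: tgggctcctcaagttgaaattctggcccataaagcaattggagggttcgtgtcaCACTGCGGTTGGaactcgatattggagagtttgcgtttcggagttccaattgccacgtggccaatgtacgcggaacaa
UGT73B5: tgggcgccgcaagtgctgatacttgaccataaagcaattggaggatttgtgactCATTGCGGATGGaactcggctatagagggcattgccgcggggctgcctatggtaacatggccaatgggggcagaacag
UGT85A3: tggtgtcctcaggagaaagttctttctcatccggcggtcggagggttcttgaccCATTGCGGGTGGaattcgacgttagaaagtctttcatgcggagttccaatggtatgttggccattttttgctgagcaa
UGT79B3: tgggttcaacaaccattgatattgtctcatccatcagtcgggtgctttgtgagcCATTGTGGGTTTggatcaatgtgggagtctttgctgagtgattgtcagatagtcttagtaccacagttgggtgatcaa
UGT71C1 and UGT71C2 had the same base at 118 of the 132 positions and the same residue at 42 of 44. UGT79B3 stood furthest from the others, with 17 to 20 of 44 residues shared with each of them, against 26 to 31 between UGT73B5, UGT85A3 and the UGT71C genes. Over whole proteins UGT71C1 (481 residues) and UGT71C2 (474 residues) were 80.1% identical, and every other pair among the 5 lay between 27.7% (UGT85A3 and UGT79B3) and 33.5% (UGT73B5 and UGT85A3).

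UGT71C1 and UGT71C2 were higher in the mutant and had the lowest levels of the higher members; the other 3 of the 5 annotated UGT71C genes, UGT71C3, UGT71C4 and UGT71C5, were not listed. UGT71C1 (AT2G29750, chromosome 2, 12709721 to 12711725, plus strand, 1 exon) encodes an enzyme known to glucosylate lignans in Arabidopsis. Its raw counts were 13, 19 and 25 in Col-0 replicates 1, 2 and 3, and 37, 57 and 49 in mutant replicates 1, 2 and 3. The lowest mutant library lay above the highest Col-0 library. Dividing by the size factors put the Col-0 mean at 19.0 ± 5.95 normalized counts and the mutant mean at 47.4 ± 7.60 (SD, n = 3 each), a 2.49-fold difference. In the authors' deposited table the log2 fold change was 1.32, with an adjusted p of 0.0262.

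UGT71C2 (AT2G29740, chromosome 2, 12706627 to 12708367, plus strand, 1 exon), whose product is annotated with activity on quercetin, a flavonol, had the fewest reads and the largest ratio of the 5 genes. Col-0 libraries held 3, 6 and 3 raw reads and mutant libraries 20, 28 and 14, so that again no library of one genotype reached the other. The normalized means were 4.03 ± 1.86 in Col-0 and 20.5 ± 5.87 in the mutant (SD, n = 3 each), a 5.08-fold difference. The authors' deposited table gave a log2 fold change of 2.35 and an adjusted p of 0.0178. The Col-0 mean rested on 12 reads over 3 libraries, with an exact Poisson 95% interval of 6.20 to 21.0 reads, against 62 reads in the mutant (47.5 to 79.5); these intervals cover counting error only. The SD between Col-0 libraries was 0.927 times the square root of their mean, which is about the spread that read counting alone gives at this level. Without Col-0 replicate 2, the library with 6 reads, the log2 ratio was 2.79 in place of 2.34.

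UGT71C2 and UGT71C1 are neighbours, transcribed in the same direction and separated by 1353 bases, with no other protein-coding gene between them. The genes on the outer sides, AT2G29735 and OTP81, were not listed. Per kb of exon, UGT71C2 stood at 0.256 ± 0.113 times the UGT71C1 level in Col-0 and at 0.506 ± 0.156 times in the mutant (SD, n = 3 each). Within experiments the ratio was 0.266 in Col-0 and 0.623 in the mutant in experiment 1, 0.364 and 0.566 in experiment 2, and 0.138 and 0.329 in experiment 3. It was thus higher in the mutant in 3 of 3 experiments, while the genotypes overlapped across experiments, with 0.364 the highest in Col-0 and 0.329 the lowest in the mutant. The ratio restates the 5.08-fold difference of UGT71C2 against the 2.49-fold difference of UGT71C1, for which both genes had been listed. It is therefore no separate result, and its Col-0 values rest on 3, 6 and 3 reads of UGT71C2. The 250 bases before the annotated start of UGT71C2, chr2:12706377-12706626 on the plus strand of TAIR10.1, are shown because this gene had the largest ratio of the 5; capitals mark the match to a motif described further on.
UGT71C2: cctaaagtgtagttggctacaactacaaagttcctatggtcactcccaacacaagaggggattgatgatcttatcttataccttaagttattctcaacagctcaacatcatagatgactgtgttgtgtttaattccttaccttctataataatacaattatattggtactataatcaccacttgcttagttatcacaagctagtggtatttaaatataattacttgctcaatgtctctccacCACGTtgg
The match, ACGTG on the other strand, begins 8 bases before the annotated start.

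UGT73B5 (AT2G15480, chromosome 2, 6758430 to 6763501, plus strand) encodes an enzyme with activity on quercetin that is known for its part, with UGT73B3, in the redox state and the hypersensitive response of leaves to Pseudomonas syringae. Raw counts were 120, 97 and 80 in Col-0 replicates 1, 2 and 3 and 190, 191 and 157 in the mutant. The normalized means were 99.0 ± 19.6 in Col-0 and 179 ± 19.0 in the mutant (SD, n = 3 each), a 1.81-fold difference and the smallest of the 5. The genotypes did not overlap. The authors' deposited table gave a log2 fold change of 0.86 with an adjusted p of 0.00787. Normalized counts of UGT73B5 were highest in experiment 1 and lowest in experiment 3 in both genotypes.

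UGT85A3 (AT1G22380, chromosome 1, 7900355 to 7902427, minus strand, 2 exons) belongs to the subfamily of UGT85A1, an enzyme known to glucosylate the cytokinin zeatin. Raw counts were 140, 114 and 104 in Col-0 and 259, 241 and 220 in the mutant. The normalized means were 119 ± 17.7 and 240 ± 26.7 (SD, n = 3 each), a 2.02-fold difference with no overlap. In the authors' deposited table its log2 fold change was 1.01 and its adjusted p of 6.35e-05 was the smallest of the 5 members. UGT85A3 was the member with the most reads, 358 over the Col-0 libraries and 720 over the mutant libraries. The next genes on the same strand, UGT85A5 at a distance of 19 bases and UGT85A1 at 1232 bases, were not listed.

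UGT79B3 (AT4G27570, chromosome 4, 13763410 to 13765064, minus strand, 1 exon), the member that was lower, encodes an enzyme known to add rhamnose to anthocyanins and to be induced by cold, salt and drought. Raw counts were 34, 61 and 62 in Col-0 and 10, 18 and 23 in the mutant. All 3 mutant libraries lay below the lowest Col-0 library, which was replicate 1. The normalized mean was 52.5 ± 16.5 in Col-0 and 16.9 ± 6.56 in the mutant (SD, n = 3 each), a level 3.10-fold lower. The log2 fold change in the authors' deposited table was -1.63, with an adjusted p of 0.0150. Between the Col-0 libraries the SD was 2.28 times the square root of the mean, the widest spread over counting of the 5 genes in Col-0. Without mutant replicate 3 the log2 ratio was -1.95 in place of -1.63.

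**Figure D1:**
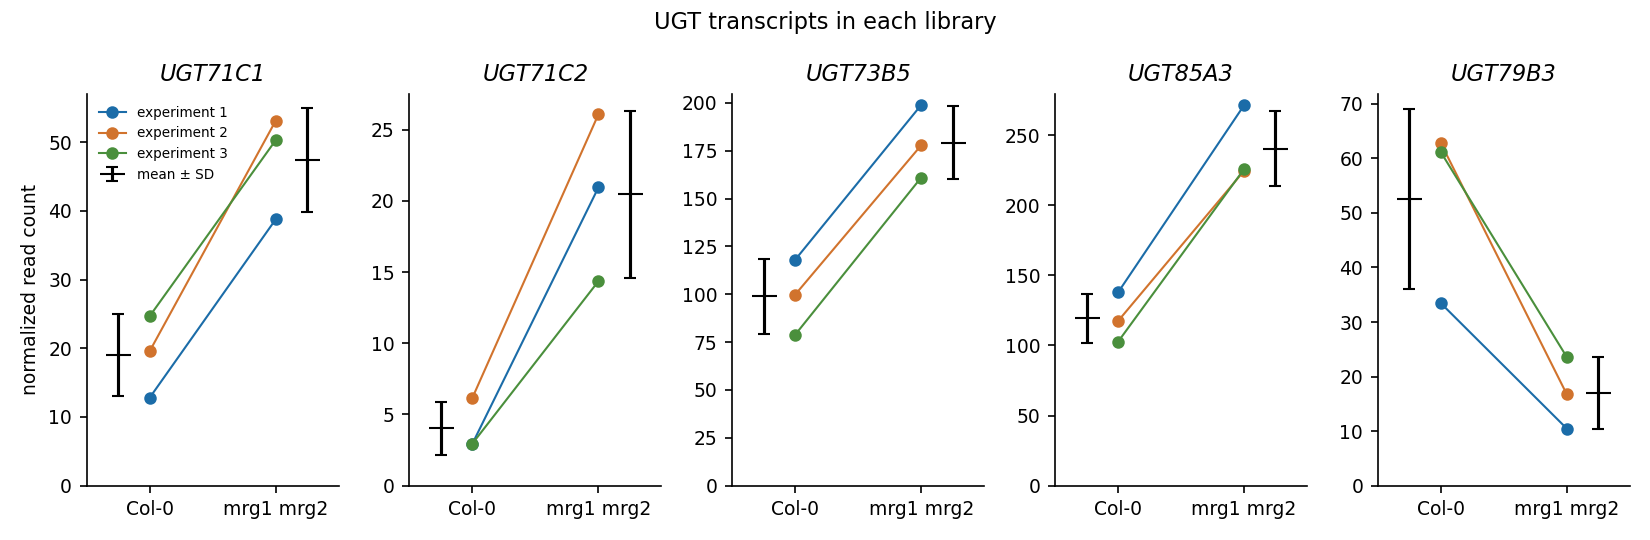
Normalized read counts (y axis, from 0) of the 5 UGT genes in each of the 6 libraries. Lines join the Col-0 and mrg1 mrg2 libraries with the same replicate number, taken as the same experiment. Black marks are the mean ± SD of 3 libraries. The lines rise for UGT71C1, UGT71C2, UGT73B5 and UGT85A3 and fall for UGT79B3, and the genotypes do not overlap in any of the 5 panels.

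The libraries of a genotype did not overlap with those of the other for 5 of the 5 members, compared with 99.6% of all 552 listed genes, which had been selected for a difference. All 5 members also differed in the same direction in each of the 3 experiments, as did 100% of the listed genes, so neither count sets the members apart. Within experiments the log2 ratio of mutant over Col-0 was tightest for UGT85A3, at 0.98, 0.94 and 1.14 in experiments 1, 2 and 3, and for UGT73B5, at 0.75, 0.83 and 1.03. It was wider for the 3 members with fewer reads. UGT71C1 gave 1.60, 1.44 and 1.03, and UGT71C2 gave 2.83, 2.08 and 2.28. UGT79B3 gave -1.68, -1.91 and -1.37. The SD of the 3 ratios was 0.11 for UGT85A3, 0.14 for UGT73B5, 0.27 for UGT79B3, 0.30 for UGT71C1 and 0.39 for UGT71C2.

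The highest or lowest library was often that of the same experiment in both genotypes. How often this held over all 552 listed genes was not counted, so it is not read as particular to the members. In experiment 1 UGT73B5 and UGT85A3 had their highest normalized count in Col-0 and again in the mutant, while UGT71C1 and UGT79B3 had their lowest in both. UGT71C2 had its highest count in experiment 2 in both genotypes. Col-0 replicate 1 was thus the highest Col-0 library for 2 members and the lowest for 3, where UGT71C2 replicates 1 and 3 had 3 raw reads each. Over all 552 listed genes it was the highest for 261 and the lowest for 148. With Col-0 replicate 1 left out, the log2 ratio was 1.00 for UGT73B5 and 1.13 for UGT85A3, in place of 0.86 and 1.01.

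**Figure D2:**
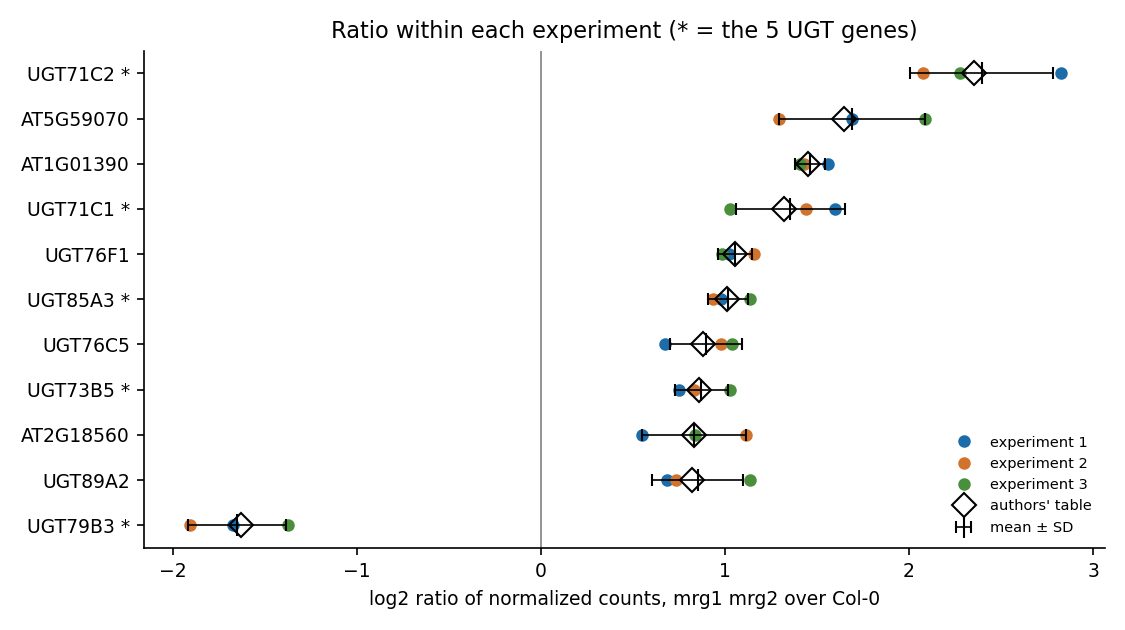
Log2 ratio of normalized counts, mrg1 mrg2 over Col-0 (x axis), within each of the 3 experiments for the 5 UGT genes (starred) and the 6 other listed genes of the superfamily; black bars are the mean ± SD of the 3 ratios and open diamonds the authors' log2 fold change. All 3 ratios are above 0 for the 10 higher genes and below 0 for UGT79B3, and they span 2.08 to 2.83 for UGT71C2 against 0.94 to 1.14 for UGT85A3.

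To compare levels between genes, normalized counts were divided by the exon length of each gene. In Col-0 the order was UGT85A3 with 69.0 ± 10.2, UGT73B5 with 42.0 ± 8.33, UGT79B3 with 31.7 ± 9.96, UGT71C1 with 9.48 ± 2.97 and UGT71C2 with 2.31 ± 1.07 normalized counts per kb (SD, n = 3 each). UGT73B5 and UGT79B3 overlapped between libraries, and each of the other neighbours in this order was apart. In the mutant the order was UGT85A3 with 139 ± 15.4, UGT73B5 with 76.1 ± 8.07, UGT71C1 with 23.6 ± 3.79, UGT71C2 with 11.8 ± 3.37 and UGT79B3 with 10.2 ± 3.96 (SD, n = 3 each). UGT79B3 thus moved from the third place to the last, where it and UGT71C2 overlapped. The exon length of UGT73B5, 2355 bases, includes 255 bases that a second annotated transcript shares with UGT73B4.

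**Figure D3:**
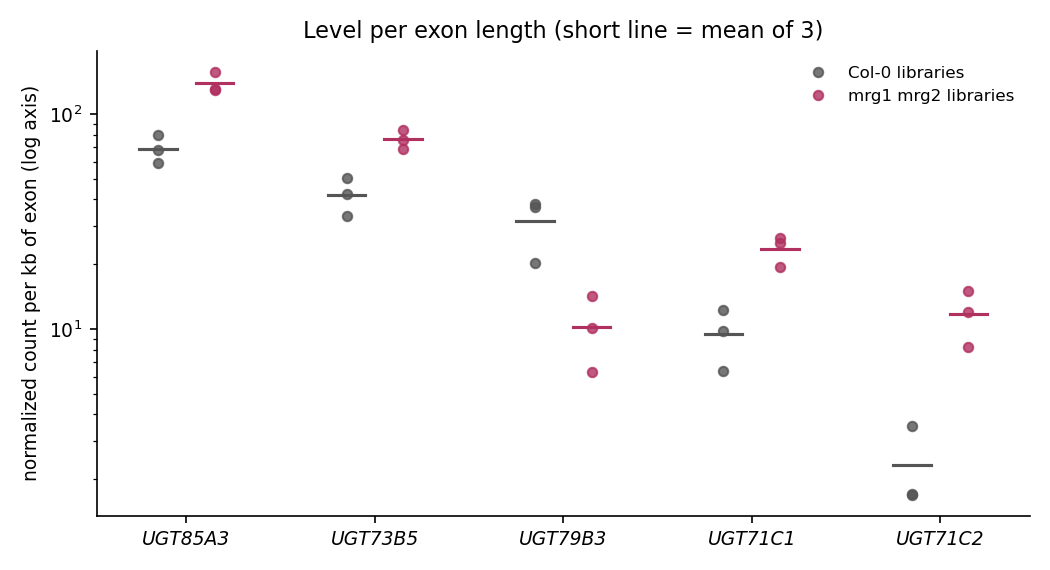
Normalized counts per kb of exon (y axis, logarithmic) of the 5 UGT genes in the 3 Col-0 and 3 mrg1 mrg2 libraries, ordered by their Col-0 mean; short lines are means of 3 libraries. UGT79B3 changes from 31.7 to 10.2 per kb, the level of UGT71C2 in the mutant.

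How far 50-base reads can tell these genes from their relatives was read from the annotated transcripts. UGT71C1, UGT71C2 and UGT85A3 shared 0 of their 1956, 1692 and 1680 words of 50 bases with any transcript of another gene, in spite of the 80.1% protein identity of the UGT71C pair. UGT73B5 shared 96 of 2050 words (4.68%) in its longest transcript, all with UGT73B4, to which its protein was 91.5% identical. UGT73B4, at 6761635 to 6763500 on the same strand, lies within the annotated span of UGT73B5. A second annotated transcript of UGT73B5 ends in an exon of UGT73B4 and shared 291 of its 1675 words (17.4%). UGT79B3 shared 342 of 1606 words (21.3%), all with AT4G27560, a gene on the same strand whose protein was 94.7% identical. The split of reads between UGT79B3 and AT4G27560, and between UGT73B5 and UGT73B4, is therefore uncertain in part. Neither AT4G27560 nor UGT73B4 was listed, and how the authors treated reads that match 2 genes is not stated in any source used here. The PSPG box shows how alike UGT79B3 and AT4G27560 are. That of AT4G27560 lies at chr4:13760381-13760512 on the minus strand, and capitals mark the 3 positions of 132 at which they differ.
UGT79B3: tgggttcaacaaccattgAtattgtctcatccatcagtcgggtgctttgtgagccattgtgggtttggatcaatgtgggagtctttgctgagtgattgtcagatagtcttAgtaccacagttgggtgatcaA
AT4G27560: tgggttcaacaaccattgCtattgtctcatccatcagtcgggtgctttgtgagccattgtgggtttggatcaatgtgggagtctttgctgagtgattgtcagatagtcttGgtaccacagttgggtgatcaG
The longest run without a difference in these boxes is longer than a read, so reads from its middle could belong to either gene.

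**Figure D4:**
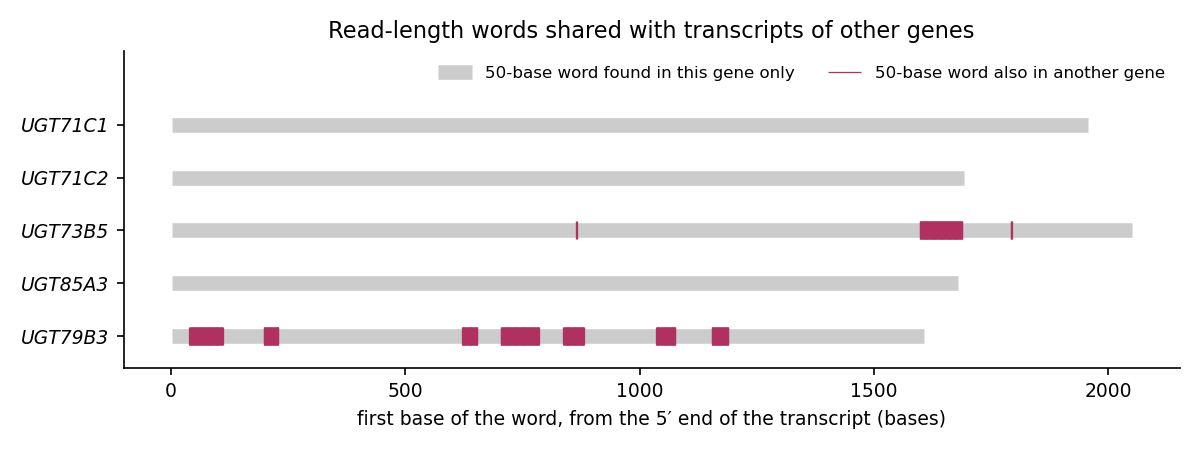
Position along the longest transcript (x axis, in bases from the 5′ end) of every 50-base word of the 5 UGT genes; grey marks words found in that gene only and red marks words also found in an annotated transcript of another gene. Red covers 21.3% of the words of UGT79B3 in 7 blocks and 4.68% of those of UGT73B5, and none of the other 3 genes.

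Promoter motifs did not fall into one pattern over the 4 members for which they are given, UGT71C2, UGT73B5, UGT85A3 and UGT79B3. The 250 bases before each annotated gene start were searched on both strands for TGACG (bound by TGA bZIP factors), TTGAC (the core of the W-box of WRKY factors), ACGTG (the core of elements bound by abscisic acid response factors) and CCGAC (the core of the element bound by CBF factors). ACGTG was found before 3 of these 4, UGT71C2, UGT85A3 and UGT79B3, compared with 22.9% of 27443 nuclear protein-coding genes. Among the 506 of these genes that were listed as higher, it was 25.7%. UGT85A3 had 2 matches that overlap, 1 on each strand, at 22 and 21 bases before the start. TTGAC was found before 1, UGT73B5 (44.9% of all and 50.2% of the higher genes). TGACG was also found before UGT73B5 alone of the 4 (18.6% and 22.7%), and CCGAC before 0 (12.0% and 9.88%). The stretch before UGT79B3, chr4:13765065-13765314 read on the minus strand, is shown since it is the member that was lower; the capitals mark its only match, ACGTG.
UGT79B3: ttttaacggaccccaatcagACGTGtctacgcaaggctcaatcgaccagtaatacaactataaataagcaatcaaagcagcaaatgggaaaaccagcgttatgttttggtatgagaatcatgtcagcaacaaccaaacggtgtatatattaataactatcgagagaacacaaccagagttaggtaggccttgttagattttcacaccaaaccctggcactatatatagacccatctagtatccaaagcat
A match is a run of letters and not a bound site, and annotated starts may differ from the starts used in this tissue.

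Another 6 genes of the UGT superfamily were listed, all 6 as higher, as were 531 of all 552 listed genes. The higher list reaches down to smaller changes than the lower list, so the counts in the 2 directions are not like for like. Among 68 protein-coding genes with a UGT name in the annotation or in the deposited tables, 7 were listed as higher and 1, UGT79B3, as lower; 60 were not listed. That is 10.3% higher, whereas 1.84% of 27444 nuclear protein-coding genes were listed as higher and 0.0765% as lower. The 10.3% is raised by the names themselves, since the deposited tables name listed genes only: by names in the annotation alone 4 of 64 (6.25%) were higher and 0 lower. By names or the product text of the UDP-glycosyltransferase superfamily, 10 of 134 (7.46%) were higher and 1 lower. No test was made, as the members had been picked with these lists known.

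UGT76F1, known to glucosylate the auxin precursor indole-3-pyruvate, had a mean of 30.0 ± 1.37 normalized counts in Col-0 libraries and 62.2 ± 3.24 in mutant ones. UGT89A2, known to act on dihydroxybenzoic acids, had 322 ± 88.1 and 568 ± 73.3 (SD, n = 3 each). UGT76C5 had 552 ± 113 in Col-0 and 1017 ± 90.5 in the mutant (SD, n = 3 each). AT1G01390, AT2G18560 and AT5G59070, which have no UGT name in the files, were the other listed genes of the superfamily. The authors' deposited table gave these 6 genes log2 fold changes between 0.82 (UGT89A2) and 1.65 (AT5G59070), with a median of 0.97, compared with 1.17 for the 4 higher members and 1.08 for all 531 higher genes. By family group, the higher members were 2 of 16 named genes of group E (the UGT71 and UGT72 families and UGT88), 1 of 11 of group D (UGT73) and 1 of 6 of group G (UGT85). UGT76F1, UGT76C5 and UGT89A2 carry a UGT name only in the deposited tables, which name listed genes only, so no share of their groups is given. A chosen set of 18 UGT genes known for hormones, glucosinolates or defence included UGT74F1 and UGT74F2 of salicylic acid and UGT73C5 of brassinosteroids. Of these 18, 0 were listed in either direction. The set left out UGT73B5 and UGT76F1, which were higher and are described above with roles in defence and on an auxin precursor. Nothing is read from the count, since 1.84% of all coding genes were listed as higher and 0.0765% as lower.

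**Figure D5:**
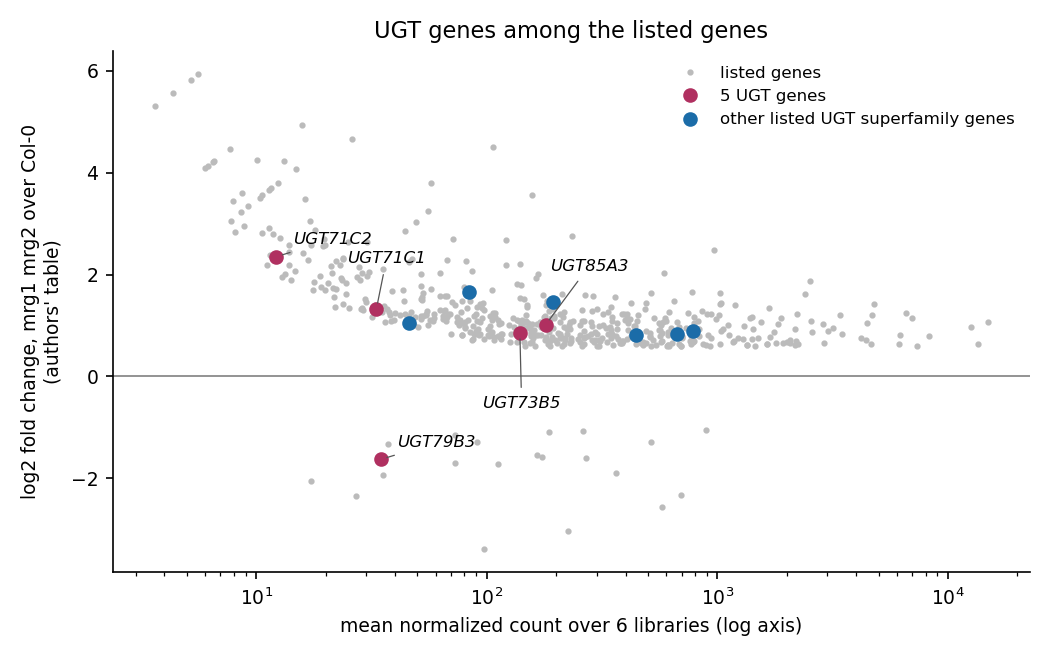
Log2 fold change in the authors' table (y axis) against the mean normalized count over the 6 libraries (x axis, logarithmic) for the 552 listed genes; the 5 UGT genes are red and the 6 other listed superfamily genes blue. UGT71C2 has the lowest mean count and the largest ratio of the 5, and UGT79B3 is the single red point below 0.

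UGT71C2 had a larger log2 fold change than 89.8% of the 531 higher genes, UGT71C1 than 68.9%, UGT85A3 than 43.3% and UGT73B5 than 30.9%, all from the authors' deposited table. UGT79B3 ranked 11 of 21 among the lower genes by the size of its change. Of the 4 higher members, the UGT71C genes had both the fewest reads and the larger ratios. The genes were listed by the size of the change and by adjusted p. A gene with few reads reaches a low adjusted p only with a large ratio. This link and the rank of UGT71C2 are therefore not read as a result.

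Lists of genes that work beside UGT enzymes had 0 or 1 listed gene each; with 1.84% of all coding genes listed as higher and 0.0765% as lower, counts of 0 or 1 in lists of 3 to 49 genes are read as no result about any list. Of 49 glutathione transferases, which conjugate foreign and oxidised compounds, 1 was higher: GSTU26 had a mean of 530 ± 75.7 in Col-0 libraries and 1121 ± 78.1 in mutant ones (normalized counts, SD, n = 3 each). Of 15 ABCC transporters, which carry conjugates into the vacuole, 1 was higher, ABCC6, with 36.3 ± 6.94 against 89.6 ± 17.6. Of 3 MATE carriers with a DTX name, DTX50, which exports abscisic acid, was higher, with 238 ± 80.8 against 552 ± 264; its mutant libraries held 359, 456 and 834 raw counts. Adjusted p in the authors' deposited table was 1.83e-10 for GSTU26, 0.00129 for ABCC6 and 0.0297 for DTX50. Of a chosen set of 22 genes for the synthesis, regulation, glycosylation or transport of anthocyanins and flavonoids, 0 were listed. The set was not a full list of such genes. It left out UGT79B3 itself, which was lower, and the regulator genes ATMYBL2, LBD37 and LBD39, which were listed as higher. Anthocyanins are the acceptors of UGT79B3. Of 7 cold regulators, CBF2, a transcription factor gene of the cold response, was higher, with 153 ± 19.3 against 293 ± 85.8 (SD, n = 3 each), and 0 were lower. None of 8 genes of TGA factors and their partner SCL14 was listed.

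Among listed genes with a symbol, those whose profile over the 6 libraries was nearest to each member were found by the root mean square difference of log2(normalized count + 1), each gene centred on its own mean. UGT73B5 was nearest to RHA1B, a ubiquitin ligase gene (0.0351), and to UGT76C5 (0.0532). UGT85A3 was nearest to BHLH66 (0.0708) and to UGT73B5 (0.0990). UGT71C1 was nearest to MPK10 (0.149) and ATL54 (0.161), though AT1G01390, the superfamily gene without a symbol, was nearer (0.126), and UGT71C2 to CPK22 (0.241) and TCL1 (0.259). The UGT71C neighbours differed from each other by 0.603. UGT79B3 was nearest to FLC, a repressor of flowering (0.302), and BAM5, a beta-amylase gene (0.383). Both are lower genes, which the measure favours, since each profile holds the direction of the difference. Without the need for a symbol, a gene known only by its locus was among the nearest 2 of each member: AT3G09162 for UGT71C1 (0.144, after AT1G01390), AT2G07754 for UGT71C2 (0.186), AT5G01215 for UGT73B5 (0.0480), AT1G44740 for UGT85A3 (0.0713) and AT2G43590 for UGT79B3 (0.365). The measure was taken over 6 libraries and 552 genes that share them, and it is given as a description. Each profile holds the difference between genotypes by which the gene was listed, so near genes are largely those with a similar fold change. The authors' log2 fold change was 0.86 for UGT73B5, 0.87 for RHA1B and 0.88 for UGT76C5. No regulation in common is read from the distances.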

How the data were processed

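RNA was measured in 3 Col-0 and 3 mrg1 mrg2 libraries. Per the labels' protocols, ribosomal RNA was depleted and stranded libraries were read as single ends of 50 bp; the submitters' processing notes name TAIR10 and DESeq2. Neither an aligner nor a counting method is named by the sources. For listed genes only, the authors deposited raw counts in every library (per the file headers). Each gene's log2 fold change, p-value and adjusted p-value in these deposited tables are the authors' own, for mrg1 mrg2 over Col-0; the sign matched the counts in all 552 genes.

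A least-squares search over 435 genes with a mean count of at least 50 found the 6 size factors under which the counts give the authors' log2 fold changes. They lay between 0.955 and 1.07, and the SD of the log2 residuals was 0.000884, against 0.00935 if all factors were equal. Raw counts divided by these factors are called normalized counts. The p-values and adjusted p-values of the authors' tables fit a test of 22995 genes, in which 195 further genes lay within the listed range of adjusted p. Those genes were not listed and are not analysed here. The members and the gene lists were chosen with earlier results of these data known. Named were the 5 members, the other listed UGT genes, listed members of the gene lists and the chromosomal neighbours. For each member, the 2 genes with a symbol and the nearest profile were also named. The nearest genes without a symbol, and ATMYBL2, LBD37 and LBD39, were added after their values were seen.

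Col-0 and mutant libraries with the same replicate number deviated together from their genotype means (r = 0.40, 0.55 and 0.32 over 435 genes, -0.42 to 0.017 for other pairs). The deviations of 3 libraries from their own mean cancel out, so positive values for the same numbers push the other pairs down, and the contrast is partly arithmetic. The numbers were taken to pair the libraries, a pairing that rests on these correlations and the shared numbers in the labels. Genes are not independent replicates in this check, and all of them had been listed for a difference. The p-values measure the spread between these libraries, which come from 3 independent experiments. Pairs of libraries of a genotype differed by 12.6 to 35.9 times counting noise (chi-square per gene), so none was a repeated library. An exact permutation test of 3 against 3 libraries could not give a two-sided p below 0.1, and none was used.

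edgeR 4.0.16 and DESeq2 1.42.0 (R 4.3.3) gave fitted fold changes of the listed genes as alternatives, without p-values; the fits were tested on simulated data. Positions and sequences are from the TAIR10.1 annotation and genome, which held 549 of the 552 listed identifiers, all on the strand given in the tables. Proteins were compared by global alignment in Biopython 1.88. Words of 50 bases, the read length, were compared as exact matches on the sense strand of annotated transcripts. One promoter stretch is not reported here.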

Additional observations from a re-analysis of the deposited data

How the results depend on the processing

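The 5 log2 fold changes kept their sign under all 13 alternatives each. With groups that do not overlap, leaving out a library or adding a pseudocount could not change the sign. The fold changes moved by less than the SD of the 3 within-experiment ratios in 61 of 65 cases. The other 4 came from leaving out a library. With each library left out in turn the log2 fold change ranged from 1.1 to 1.55 for UGT71C1, 2.13 to 2.79 for UGT71C2, 0.72 to 1.00 for UGT73B5, 0.91 to 1.13 for UGT85A3 and -1.95 to -1.38 for UGT79B3. Equal size factors, no count minimum, a pseudocount of 1, edgeR and DESeq2 fits and the replicate block gave 1.27 to 1.36, 2.09 to 2.39, 0.85 to 0.87, 1.01 to 1.02 and -1.65 to -1.58. The edgeR and DESeq2 fits used the size factors recovered from the authors' fold changes, so their closeness to those fold changes is largely built in. With the replicate block, edgeR gave 1.32, 2.31, 0.87, 1.01 and -1.63, and the mean of the 3 paired ratios was 1.36, 2.39, 0.87, 1.02 and -1.65; the block changed no direction. All 5 members stayed without overlap with raw counts. Leaving out a library cannot create an overlap, so nothing is read from the 5 members staying apart without any 1 library. The count of 7 UGT genes listed as higher was 4 with changes of at least 1 on the log2 scale, and 4 by annotation names alone, a count added after the data were seen; by annotation names the count of lower genes was 0 in place of 1. Scaling over the listed genes themselves was not used, since 531 of the 552 were selected as higher. Reads limit UGT71C2 most, with 12 in Col-0, and the exact 50-base matches do not show how reads with mismatches were placed.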
